A study of Homo sapiens with 2 samples.

Results

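The genes described here are the hypoxia-inducible factor (HIF) subunits HIF1A, EPAS1 and ARNT, the proteins that control their stability, VHL, CUL2, EGLN1, EGLN2, EGLN3 and SIAH1, and the hypoxia-induced growth factor gene VEGFA. They were measured in RWPE-1, a human cell line from noncancerous prostate epithelium, after transfection with pre-miR-424 (30 nM) or with Negative control #1 at the same dose, in supplemented serum-free keratinocyte medium (KSF). A pre-miR is a synthetic RNA meant to supply the cell with the microRNA it is named for. The amplified RNA of both transfections was put together on each of 2 Agilent two-colour arrays, one RNA in Cy3 and the other in Cy5. With normal labelling (the normal array) the RNA of pre-miR-424 cells carried Cy5 and the control RNA Cy3, and on the second array, a dye swap, the dyes were exchanged. Per the labels these are technical replicates, so the arrays counted as 1 replicate and no p-value was computed, and the difference between them covers technical error (labelling and hybridisation) and no spread between cultures. Whether the swap used the same amplified RNA is not given in the sources used here. All cells are of 1 line, and neither the time after transfection nor the number of cultures was given in the sources used here. The members were all non-control probes whose RefSeq accession belongs to one of these genes, which gave 13 probes at 39 spots for 10 genes, of 19740 genes with a matched accession on the array. Of all genes, 13812 had a measured probe, that is, one without an outlier spot whose signal was well above background in all 4 channels, and 9 of the 10 members were among them, with 12 measured probes.

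The HIF alpha subunits, encoded by HIF1A and EPAS1, pair with the beta subunit encoded by ARNT and activate genes of glycolysis, angiogenesis and survival when oxygen is low. With oxygen present, the prolyl hydroxylases encoded by EGLN1, EGLN2 and EGLN3 mark the alpha subunits, VHL recognises the mark, and a ubiquitin ligase built on the scaffold CUL2 tags them for degradation, so most of this regulation acts on protein and not on RNA. In endothelial cells, the transcript of CUL2 has been described as a target of miR-424. The arrays measured RNA only, and no protein, and no hypoxic culture is named in the labels.

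The agent is named for miR-424, a microRNA encoded on chromosome X. The mature strands of miR-424 are shown because a microRNA recognises transcripts mainly by its seed (bases 2 to 8, in capitals). Coordinates are those of RefSeq on GRCh38.p14, chrX:134546680-134546701 for miR-424-5p and chrX:134546644-134546664 for miR-424-3p, both on the minus strand. The labels do not say which strand acts in these cells.
miR-424-5p: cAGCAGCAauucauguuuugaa
miR-424-3p: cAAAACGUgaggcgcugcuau
In the RefSeq table, 7 mature microRNAs from 8 genes have the seed of miR-424-5p. The family members given for comparison are identical to it over bases 2 to 8 and differ further on.
miR-15a-5p: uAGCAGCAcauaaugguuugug
miR-16-5p: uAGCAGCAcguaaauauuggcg
miR-195-5p: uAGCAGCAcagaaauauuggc
miR-497-5p: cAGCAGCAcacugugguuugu
The mature microRNA was not measured here, so its delivery was not checked by its own level.

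Ratios are given as log2 of pre-miR-424 over control on each array, after background correction and loess normalization, with the sign turned on the dye swap. A probe was called different when both arrays gave a log2 ratio of 0.5 (1.41-fold) or more with equal sign. As a second yardstick, the technical SD of a probe is the root mean square of the difference between the arrays divided by 2, over the 1000 measured probes closest to it in intensity, and for the members it lay between 0.15 and 0.17. Any part of a ratio that follows the dye enters this difference but cancels in the mean of the arrays. The technical SD is therefore not a measure of the error of the mean alone. None of the 12 measured member probes was called in either direction, against 1.50% of all 25664 measured probes (384 probes, 0.709% called higher and 0.787% lower). At a lower threshold of 0.3, still 0 members were called, against 4.89% of all measured probes (2.38% higher and 2.51% lower). The largest mean of the arrays in size was 0.28, at the second probe of HIF1A. Differences smaller than these yardsticks may have been missed with 2 technical arrays. The yardsticks are not detection limits, which were not worked out. The mean exceeded 1 technical SD for 33.0% of all measured probes.

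The arrays agreed in sign for fewer members than not. A ratio above 0 on both arrays was found for 5 of the 12 probes (25.0% of all measured probes), and a ratio below 0 on both for 0 of 12 (26.4%). The other 7 probes had opposite signs, and each of them was lower with pre-miR-424 on the normal array and higher on the swap, which means that it was brighter in Cy3 on both arrays after normalization (22.9% of all measured probes). Among these 7, HIF1A probe 1 was almost at 0 on the normal array (−0.0010). With an offset of 16 it had 0.00086 there, and so a ratio above 0 on both arrays. The reverse pattern, brighter in Cy5 on both arrays, was seen in 0 members and in 25.7% of all measured probes. With median centring in place of loess, and relative to the median of all genes on each array, 5 probes were lower on the normal array and higher on the swap, 6 were above 0 on both arrays, and EPAS1 had 0.059 and −0.23. The part of the dye in these values was not tested. With the brightest measured probe per gene, the 9 member genes had medians of −0.0010 for the normal array, 0.13 for the swap and 0.088 for the mean, beside 0.0011, −0.00035 and −0.0042 over all measured genes.

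**Figure D1:**
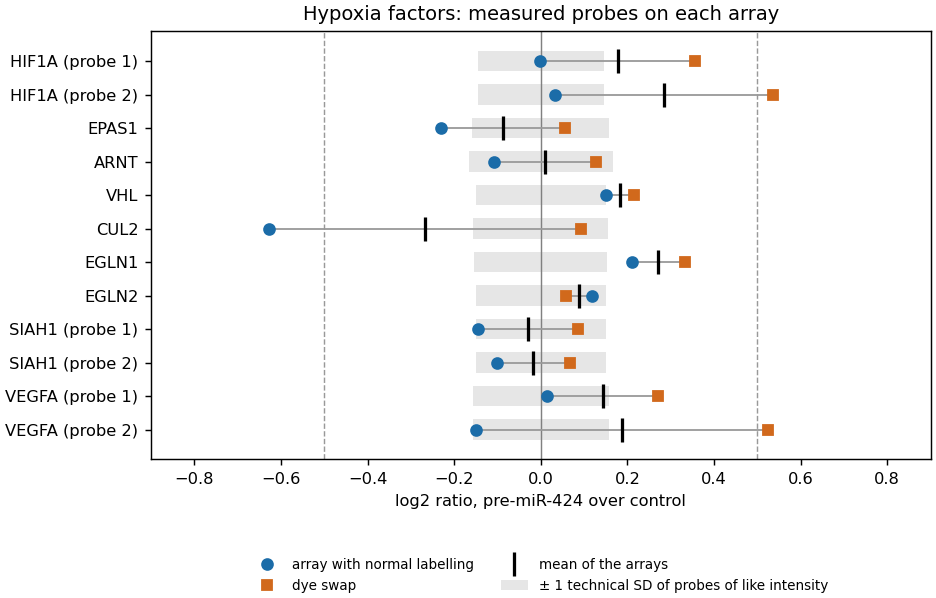
Log2 ratio of pre-miR-424 over control (x axis) for the 12 measured member probes (y axis) on the array with normal labelling (circles) and on the dye swap (squares), with the mean of the arrays as a vertical mark, the technical SD of probes of like intensity as a grey bar around 0 and the call threshold of 0.5 as dashed lines. No probe passed the threshold on both arrays. CUL2 passed it on the normal array (−0.63) and HIF1A probe 2 (0.54) and VEGFA probe 2 (0.52) on the swap.

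Among the HIF subunits, HIF1A, the widely expressed alpha subunit, had 2 probes with the same accession (NM_181054). At probe 1, printed as 10 spots, the normalized log2 level was 13.29 in pre-miR-424 cells and 13.29 in control cells on the normal array, and 13.55 and 13.19 on the swap. The log2 ratio was therefore −0.0010 on the first array and 0.36 on the second (mean 0.18, SD 0.25 between arrays). After loess, the signal of this probe was thus nearly equal for both RNAs on one array and higher with pre-miR-424 on the other. The spots of the probe told the same within each array: on the normal array they ranged from −0.059 to 0.051, with 5 of 10 above 0, whereas on the swap all 10 lay between 0.33 and 0.42. The SD of the spots was 0.038 and 0.034, so the arrays differed by more than the spots within an array. Probe 2, a single spot, gave levels of 13.28 against 13.25 on the normal array and 13.64 against 13.10 on the swap. Its log2 ratio was 0.032 and 0.54 (mean 0.28, SD 0.36), and both probes of HIF1A thus had the larger ratio on the swap. The size of this gap depended on the scaling: with median centring, relative to all genes, probe 1 had 0.11 and 0.23 and probe 2 had 0.14 and 0.41 (0.24 and −0.00098, and 0.27 and 0.18, before the shift of all genes was taken off).

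EPAS1 (NM_001430) encodes the HIF-2 alpha subunit. Its level was 14.80 in pre-miR-424 cells and 15.03 in control cells on the normal array, and 14.97 and 14.92 on the swap. This gave log2 ratios of −0.23 and 0.057 (mean −0.087, SD 0.20). ARNT (NM_001668), the shared beta subunit, had ratios of −0.11 and 0.13 (mean 0.010, SD 0.17). Both spots of EPAS1 and of ARNT were below 0 on the normal array and above 0 on the swap, so that neither transcript had a direction, and both means were smaller than the technical SD.

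The ligase that degrades the alpha subunits was represented by VHL, its recognition subunit, and by CUL2, its scaffold. For VHL (NM_000551), levels were 13.22 in pre-miR-424 cells and 13.07 in control cells on the normal array, and 13.25 and 13.03 on the swap. The log2 ratio was 0.15 and 0.22 (mean 0.18, 1.14-fold, SD 0.045), and both of its spots lay above 0 on both arrays. The arrays thus differed little for VHL after loess, and its mean was 1.22 times the technical SD. With median centring its ratios were 0.38 and −0.13, or 0.25 and 0.099 relative to all genes.

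CUL2 (NM_003591) was the member probe on which the arrays differed most after loess, whereas with the scanner software's ratios VEGFA probe 2 differed more (−0.14 and 0.59) and with median centring, before the shift of all genes was taken off, EPAS1 did (0.19 and −0.46). On the normal array its level was 10.36 in pre-miR-424 cells and 10.99 in control cells, a log2 ratio of −0.63 past the threshold of the call. On the swap the levels were 10.67 and 10.58, a ratio of 0.093. The mean of −0.27 (0.831-fold) had an SD of 0.51 between the arrays and was 1.71 times the technical SD. The spots agreed within each array and not between them: both were low on the normal array (−0.69 and −0.57) and both slightly above 0 on the swap (0.062 and 0.12). Before normalization, its signal was 1653 in Cy3 and 1611 in Cy5 for normal labelling, where the medians of all spots were 189 and 290. For the swap it was 1158 and 2123, beside medians of 165 and 314. Its backgrounds were at most 69.2 as averages over its spots and at most 77 at a single spot. All of these signals were well above background, and no member spot was saturated or an outlier. With median centring in place of loess, the ratios of CUL2 were −0.50 and −0.15, but all measured genes then had medians of 0.13 and −0.23 on the arrays, and relative to these CUL2 stood at −0.63 and 0.071. With the ratios of the scanner software they were −0.62 and 0.076. The mean of CUL2 ranged from −0.33 to −0.27 over the alternatives that used both arrays, and the swap did not repeat the value of the normal array under the scalings run. A lower level of CUL2 RNA with pre-miR-424 was therefore seen on 1 of 2 technical arrays.

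**Figure D2:**
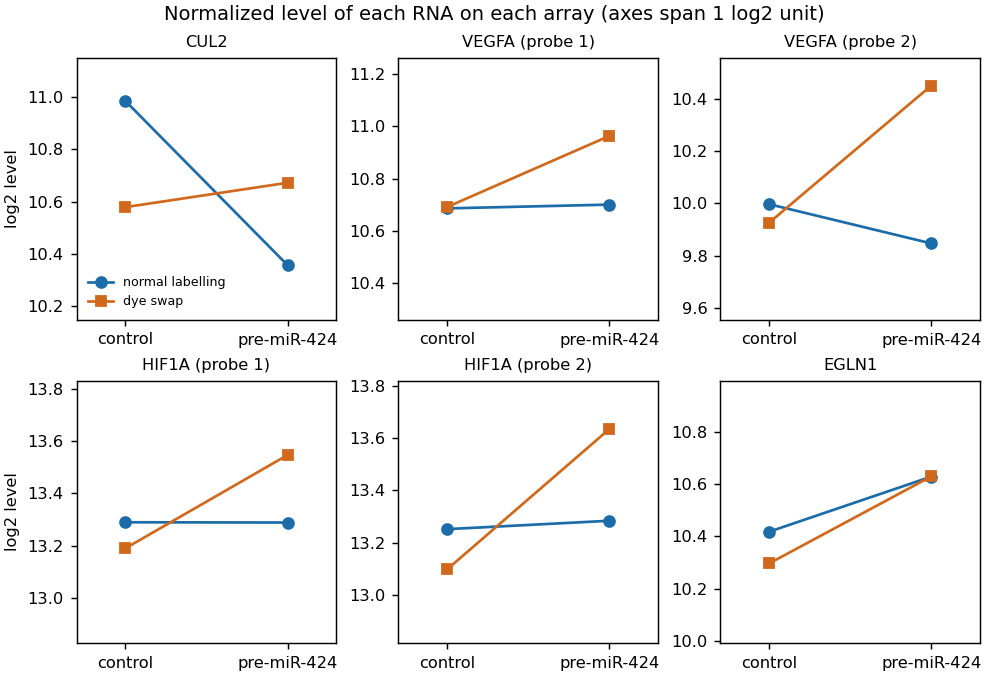
Normalized log2 level (y axis, each panel spanning 1 log2 unit) of CUL2, both VEGFA probes, both HIF1A probes and EGLN1 in the RNA of control and pre-miR-424 cells (x axis) on the normal array (circles) and the dye swap (squares); lines join the channels of an array. The lines of CUL2 and of VEGFA probe 2 run in opposite directions, whereas those of EGLN1 both go up, from 10.42 to 10.63 and from 10.30 to 10.63.

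The EGLN hydroxylases, the oxygen sensors of the pathway, differed in how well they could be read. For EGLN1 (NM_022051), the main hydroxylase of HIF in most cells and itself a HIF target, levels were 10.63 in pre-miR-424 cells and 10.42 in control cells on the normal array, and 10.63 and 10.30 on the swap. The log2 ratio was 0.21 and 0.33 (mean 0.27, 1.21-fold, SD 0.086). Both spots lay above 0 on both arrays, between 0.19 and 0.39. The mean of EGLN1 was 1.77 times the technical SD, and it was under the threshold of the call on both arrays. EGLN2 (NM_080732) had ratios of 0.12 and 0.058 (mean 0.088, SD 0.042), but its spots on the normal array lay at −0.019 and 0.25, further apart than the arrays were. With median centring EGLN2 had 0.28 and −0.22 (mean 0.026), or 0.15 and 0.0011 relative to all genes. EGLN3 (NM_022073), the hydroxylase most readily induced by hypoxia in many tissues, was not well above background in any of the 4 channels by the rule used here (over most spots of the probe), although 1 of its 2 spots was in Cy5 on the normal array. Its probe had signals of 74.0 and 68.0 in Cy3 and of 120.0 and 111 in Cy5, over backgrounds of 29.0, 27.5, 69.0 and 67.0, so no ratio is given for it.

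SIAH1, a ubiquitin ligase that targets some of the EGLN proteins, had 2 probes with 1 accession (NM_003031). Probe 1, a single spot, gave ratios of −0.14 and 0.087 (mean −0.029, SD 0.16). Probe 2, printed as 10 spots, gave −0.10 and 0.066 (mean −0.017, SD 0.12). The probes thus differed by 0.044 or less on either array. Of the 10 spots of probe 2, 9 lay above 0 on the swap and 0 with normal labelling, so that the spots followed the array here as well.

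VEGFA, the angiogenic growth factor and a classical HIF target, was read by 2 probes with different accessions. Probe 1 (NM_001025370), a single spot, had levels of 10.70 in pre-miR-424 cells and 10.69 in control cells on the normal array, and 10.96 and 10.69 on the swap. Its log2 ratio was 0.014 and 0.27 (mean 0.14, SD 0.18). Probe 2 (NM_001025366), with 2 spots, had levels of 9.85 and 9.997 on the normal array and 10.45 and 9.93 on the swap. Its ratio was −0.15 and 0.52 (mean 0.19, SD 0.48). Neither probe was lower with pre-miR-424 in the mean, but the arrays did not agree in size for the first and in sign for the second. The probes differed by 0.16 on the normal array and by −0.25 on the swap (probe 1 minus probe 2). In both cases the difference between the arrays was larger than the ratio on the normal array.

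**Figure D3:**
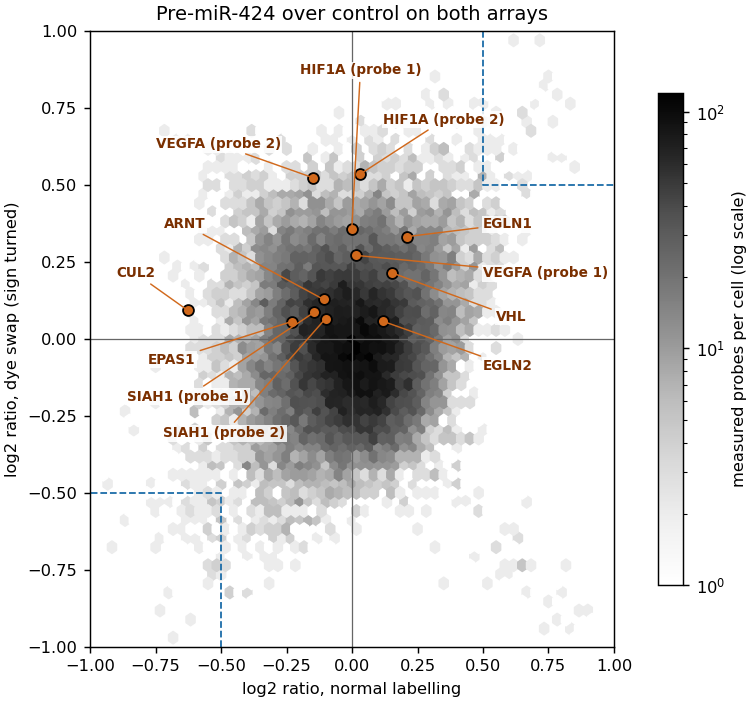
Log2 ratio of pre-miR-424 over control on the dye swap (y axis) against the normal array (x axis) for all measured probes (grey cells, log-scaled count; 158 probes lie outside the plotted range) and for the 12 member probes (circles). Dashed corners mark the call, 0.5 or more in size with equal sign; no member lies in them, and all members lie above 0 on the swap.

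All 12 measured member probes had a ratio above 0 on the swap, from 0.057 to 0.54, whereas on the normal array 5 lay above 0 and 7 below (HIF1A probe 1 at only −0.0010). With median centring, however, EPAS1 lay below 0 on the swap relative to all genes. Of all measured probes, 47.9% lay above 0 on the swap and 50.7% on the normal array. The mean of the arrays exceeded 1 technical SD for 5 probes higher with pre-miR-424 (both of HIF1A, VHL, EGLN1 and VEGFA probe 2), against 16.3% of all measured probes, and for 1 lower (CUL2), against 16.7%. No member exceeded 2 technical SD, which 9.43% of measured probes did. Among the 3 genes with 2 probes, the probes of HIF1A and SIAH1 agreed on which array gave the higher ratio, and so did those of VEGFA. This agreement was not particular to probes of 1 gene. All measured member probes except that of EGLN2 had the higher ratio on the swap. Probes of 1 gene share their RNA and labelling and are not replicates.

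The other regulators of HIF, a list of 16 genes that were all measured, had a median log2 ratio of 0.0032 (0.059 with normal labelling and −0.055 with the swap), and 0 of them were called (0.970% of all measured genes were called higher and 0.825% lower). A ratio above 0 on both arrays was found for 3 and below 0 on both for 4. P4HTM, a transmembrane prolyl hydroxylase that acts on HIF alpha, had ratios of 0.42 and 0.39 (mean 0.41). SIAH2, the relative of SIAH1, had 0.46 and 0.020, and OS9, which binds HIF alpha and the hydroxylases, had −0.078 and −0.52. RACK1, which promotes degradation of HIF1A independently of oxygen, had 0.91 and −0.91, a difference that changed sign with the labelling and left a mean of −0.0018. It was chosen after its values were seen.

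CUL2 was also set beside the other 7 cullins, the scaffolds of related ligases. Their median was −0.10 (−0.020 and −0.10 on the arrays). CUL4B, a scaffold in ligases for chromatin and DNA repair proteins, was called higher, with ratios of 0.53 and 0.56 (mean 0.54) at its brightest probe, while its other probe gave 0.095 and 0.51. CUL7, the scaffold gene mutated in a growth disorder, had −0.39 and −0.48. For CUL4A, the close relative of CUL4B, the probes differed: the brightest had −0.020 and −0.50, and the other had −0.50 and 0.060. At this second probe of CUL4A, as for CUL2, a ratio past the threshold on one array was thus not repeated on the other.

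Among the relatives and receptors of VEGFA, 6 of 9 genes were measured and 0 were called, with a median of 0.057 (0.0017 and 0.12 on the arrays). In the mean, it was 0.033 with median centring (0.077 relative to all genes) and 0.11 with the scanner software's ratios. PGF, the placental growth factor, had ratios of 0.34 and 0.21, VEGFB had −0.038 and −0.36, and VEGFC, a lymphatic growth factor, had 0.041 and 0.059. The receptors FLT1 and KDR and the ligand VEGFD were not well above background.

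A list of known HIF targets was also read. It was chosen with earlier results of these data known, so its shares are a description only. Of 40 listed genes, 32 were measured, and their medians were 0.17 for the normal array, 0.22 for the swap and 0.17 for the mean, all above those of all measured genes. None was called at 0.5 on both arrays. A ratio above 0 on both arrays was found for 16 of 32 (against 26.8% of all measured genes), below 0 on both for 5 (15.6%, against 26.7%), and opposite signs for 11. The mean exceeded 1 technical SD in 16 genes with pre-miR-424 higher (17.1% of all measured genes) and in 3 with it lower (16.8%). It exceeded 2 technical SD in 6 genes higher with pre-miR-424 and in 0 lower, against 5.02% and 4.94% of all measured genes. The 6 were STC2, ANGPTL4, CA9, LOX, MXI1 and VLDLR, with means from 0.33 to 0.67. MXI1 had 3 measured probes, of which only the brightest is given, and the others had 1 each. ANGPTL4, a secreted inhibitor of lipoprotein lipase, had ratios of 0.67 and 0.48, and CA9, a carbonic anhydrase of the cell surface often used as a hypoxia marker, had 0.66 and 0.33. STC2, a secreted glycoprotein, had 0.26 and 1.07, so that its size rested mainly on the swap. At the other end stood TFRC, the transferrin receptor (−0.31 and −0.13), and the glycolytic enzymes GPI (−0.17 and −0.25) and HK1 (−0.22 and −0.12).

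The glycolytic genes of the list, named after their values were seen, had unlike ratios. HK2, PFKFB4 and ENO2 had means of 0.24, 0.20 and 0.20 with both arrays above 0. LDHA (0.34 and −0.31) and ENO1 (0.34 and −0.35) changed sign with the labelling. The technical SD was 0.42 for LDHA and ENO1, against 0.15 to 0.17 for the members. SLC2A1, the main glucose transporter of many cells, had −0.30 and 0.21. HK2 and LDHA had 2 measured probes each, of which the brighter is given. Of the 8 targets not measured, 6 had an outlier spot. With outlier spots kept, 38 targets gave 19 above 0 and 6 below 0 on both arrays and a median of 0.17. DDIT4, an inhibitor of growth signalling, then had 0.79 and 0.36, HMOX1, the heme oxygenase, 0.50 and 0.32, and ADM, a vasodilator peptide, 0.35 and 0.25. The glycolytic enzyme PGK1 had 0.14 and −0.16, the cytokine MIF 0.30 and −0.092, and ERO1A, an oxidase of protein folding, −0.043 and −0.20. With median centring, the median of the 32 targets was 0.17 and 0.15 on the arrays relative to the shift of all genes. No hypoxia marker was measured independently of these arrays, and the cause of their position was not tested.

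**Figure D4:**
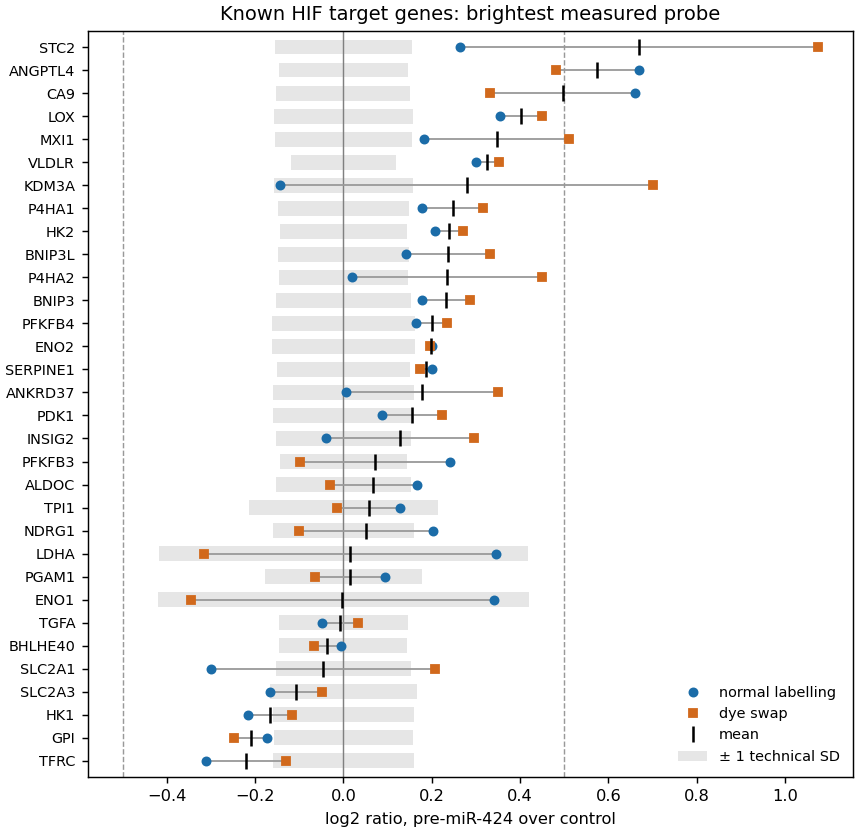
Log2 ratio of pre-miR-424 over control (x axis) for the brightest measured probe of the 32 measured HIF target genes (y axis, ordered by mean) on the normal array (circles) and the dye swap (squares), with the mean as a vertical mark, the technical SD as a grey bar around 0 and the threshold of 0.5 as dashed lines. The means run from −0.22 for TFRC to 0.67 for STC2, and 16 genes lie above 0 on both arrays.

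HIF binds the core letters ACGTG or GCGTG, so the 250 bases before each gene's start were searched for them on both strands in the RefSeq promoters of GRCh38.p14. A palindromic CACGTG counts on both strands. ACGTG was found in 3 of the 8 member genes with a sequence (EGLN1, EGLN2 and SIAH1) and in 18.5% of all 35116 genes with one, and either core in 5 members and in 43.2% of all genes. Of the listed targets with a sequence, 18 of 35 held ACGTG (51.4%) and 25 held either core (71.4%). The 35116 genes were not limited to those on the array, so their share is not a matched background. VHL and VEGFA have no entry in the table. The stretches of the hydroxylases, and of both measured targets with the highest ratio on the normal array, are given with the match in capitals. They were EGLN1 at chr1:231422288-231422320 on the minus strand, EGLN2 at chr19:40799123-40799167, CA9 at chr9:35673890-35673927 and ANGPTL4 at chr19:8363905-8363945, the last 3 on the plus strand.
EGLN1: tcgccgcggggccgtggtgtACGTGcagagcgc
EGLN2: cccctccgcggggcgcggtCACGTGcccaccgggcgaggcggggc
CA9: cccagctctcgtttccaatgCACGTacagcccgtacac
ANGPTL4: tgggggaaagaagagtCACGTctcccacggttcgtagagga
The match begins 13 bases before the start of EGLN1 and 18 before that of CA9, and these letters mark a possible site only. Among measured targets with a sequence, the median of the mean log2 ratio was 0.19 in the 14 with ACGTG and 0.11 in the 14 without, a difference that is given as a description. Among the 14 without ACGTG, PFKFB3, PFKFB4, ENO1, KDM3A, STC2 and VLDLR held GCGTG. The split therefore does not part genes with either core from those with neither. CA9 and ANGPTL4 were picked by their ratio on the normal array alone. STC2, with the highest mean, held no ACGTG but 3 matches to GCGTG. Of the targets above 2 technical SD, ANGPTL4, CA9 and LOX held ACGTG, STC2 and VLDLR held GCGTG only, and MXI1 held neither core.

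The cell line was read as epithelial by its own markers. All 7 epithelial markers listed, the basal ones KRT5, KRT14 and TP63, the simple epithelial keratins KRT8 and KRT18, and CDH1 and EPCAM, which epithelia share in general, were well above background in every channel. TP63 was dim, with highest signals of 315 in Cy3 and 498 in Cy5. These were below those of CD14 (748 and 1363), DCN (808.5 and 1451) and COL1A1 (388 and 599). The other epithelial markers reached 14651 (CDH1) or more in Cy3. Of 3 markers each, 1 of endothelium (CDH5), 2 of leukocytes (CD14 and PTPRC, the latter at 1 of 4 probes) and 2 of fibroblasts (COL1A1 and DCN) were well above background, and the part of other cells in the values was not tested. Over all measured probes, which are not independent, the ratios of the arrays had a Pearson correlation of 0.157, and 51.4% of probes had the same sign on both, against 41.7% of member probes. HIF1A probe 1, almost at 0 on the normal array, was counted there as of opposite sign.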

How the data were processed

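Two-colour scanner files were deposited by the authors, with median spot intensity and median local background per channel on a linear scale, not normalized, and a log10 ratio of Cy5 over Cy3 from Feature Extraction 10.7.3.1. A table of log2 ratios was also deposited, which matched Cy5 over Cy3 computed here (Pearson 0.991 and 0.988; column medians 0.024 and 0.036), unturned on the swap; its centring is not stated. The labels name limma as a tool, with no version. Here, background was corrected by normexp (offset 50) in limma 3.58.1 (R 4.3.3), control spots were left out, arrays were normalized by loess, and Aquantile served for levels only. The offset draws ratios of dim probes towards 0. Spots were averaged per probe, and the brightest measured probe stood for a gene. Tables were made in Python 3.11.15 (pandas 2.3.3, numpy 2.4.6), and the calling steps were tested on simulated data. RefSeq accessions were given for 27134 probes, and 25771 of these (95.0%) had a symbol in the gene table (GRCh38.p14, names only). Members and lists were chosen with earlier results of these data known. Named were all member probes and, per list, up to 5 called genes with the largest mean or, with under 3 of these, those of equal sign up to 3; other genes were named after their values were seen. As alternatives, median centring, no background correction, an offset of 16, the software's and the authors' ratios, weaker filters, kept outlier spots, single arrays, averages over a gene's probes, unturned ratios and thresholds of 0.3 and 1 were run. Some marker genes are not reported here.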

Additional observations from a re-analysis of the deposited data

How the results depend on the processing

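No member probe was called under any alternative that used both arrays, also at a threshold of 0.3, and single arrays called 1 to 2 (CUL2 on the normal array, HIF1A probe 2 and VEGFA probe 2 on the swap). The count over all measured probes, 384, was 250 with median centring (101 higher and 149 lower), 677 with the scanner software's ratios (342 and 335), 36 at a threshold of 1, 1255 at 0.3, 203 for unturned Cy5 over Cy3 (149 and 54) and 1124 to 1500 with a single array; dropping the repeat raises the last by construction, and the cause of the first and second was not tested. The median of the HIF targets, 0.17, was 0.11 with median centring, where all genes shift by −0.04, and 0.17 to 0.22 with single arrays, and that of the other cullins was −0.10 to −0.020 with single arrays. ARNT, near 0, took the other sign under 1 alternative with both arrays (−0.04), and the median of the other HIF regulators under 2. No paired analysis was possible because each ratio was already taken within an array and the arrays are 1 replicate. The number of arrays limits all values, and signal over background limits EGLN3.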
